A study of Mus musculus with 14 samples.

Results

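The 10 genes described here, Krt9, Slurp1, Serpinb7, Aqp5, Rhbdf2, Trpv3, Aagab, Ctsc, Gjb2 and Kank2, share 1 clinical fact: inherited changes in each thicken the skin of the palms and soles, a condition called palmoplantar keratoderma. They were taken by name from the 56691 gene IDs of a table of read counts, and all 10 were found and passed the filter on low counts that left 21619 genes to test. Their Ensembl IDs in that table were ENSMUSG00000051617.4 (Krt9), ENSMUSG00000022596.4 (Slurp1), ENSMUSG00000067001.12 (Serpinb7), ENSMUSG00000044217.18 (Aqp5), ENSMUSG00000020806.16 (Rhbdf2), ENSMUSG00000043029.3 (Trpv3), ENSMUSG00000037257.9 (Aagab), ENSMUSG00000030560.18 (Ctsc), ENSMUSG00000046352.8 (Gjb2) and ENSMUSG00000032194.10 (Kank2). The RNA came from whole mouse paws of 14 pups, sequenced after removal of ribosomal RNA. The 4 groups were wild-type pups on the day of birth (P0 WT, n = 4), pups labelled Krt9-/- on that day (P0 Krt9 null, n = 2), wild-type pups on postnatal day 3 (P3 WT, n = 5) and Krt9-/- pups on postnatal day 3 (P3 Krt9 null, n = 3). The labels give litter and sex for each pup. Neither the labels nor the design text says what kind of Krt9 allele or which strain was used, and they name no agent or other allele. The design asks how the loss of Krt9 alters paw RNA at either age. The pups of a group are separate samples per the labels, and on P3 no litter number held both genotypes, so litter and genotype cannot be told apart there. P3 WT replicates 2 and 3 carry the same litter number, as do P0 WT replicate 1 and P0 Krt9 null replicate 1. The main model held no litter term and treated these pups as independent.

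Thick skin of the palms and soles builds a stratum corneum far deeper than that of haired skin, and its suprabasal keratinocytes make keratin 9, a type I keratin that pairs with type II partners to form filaments found in almost no other skin. The other genes work at different points of the same barrier: secreted or cytoplasmic inhibitors and modulators (Slurp1, Serpinb7), a protease that activates other proteases (Ctsc), channels for water, calcium and small molecules (Aqp5, Trpv3, Gjb2), regulators of receptor traffic and ligand shedding (Rhbdf2, Aagab) and an adhesion scaffold (Kank2). A whole paw also holds dermis, muscle, vessels, cartilage and bone, so in these bulk libraries fewer cells of a type and less RNA per cell cannot be told apart.

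Totals per library ran from 28947715 to 41004173 counts. Levels are given as CPM, read counts scaled to a common library size with TMM normalization (a correction for the composition of each library), and comparisons between genes as CPM per kilobase of exon. A gene was called where the adjusted p of edgeR's quasi-likelihood test, corrected by Benjamini-Hochberg over all 21619 genes, was under 0.05. The deposited columns fall into 2 alphabetical runs of 8 and 6 libraries, each with all 4 groups. With run added to the model, 5017 of 21619 genes differed between the runs, so differences within each run are given too. The labels do not say what the runs stand for. The library P0 WT replicate 4, labelled female, held 0.181 CPM of Xist and 0.155 CPM of Ddx3y, while the other libraries matched their labelled sex. Its values are given separately where a result rests on it. It was the only P0 WT library of the second run. All second-run wild-type day differences (2 against 1 libraries) and P0 genotype differences (1 against 1) therefore rest on it. In the null paws the day differences were 1 against 1 libraries in the first run and 2 against 1 in the second. Between genotypes the first run held 1 null library against 3 wild-type libraries on each day.

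Across age in wild-type paws 4 of the 10 genes were called: Krt9, Slurp1 and Ctsc rose from P0 to P3, and Gjb2 fell. Over all genes tested 16.6% were called in that comparison, 8.49% higher and 8.07% lower on P3. In the Krt9 null paws only Ctsc was called between the days, where 0.768% of all genes were called and 0.338% were higher. These shares are also the background for the counts of calls in the other gene lists below. None of the 10 was called between genotypes on P0 or on P3, where 0.00463% of all genes (1 gene, Krt19) were called on each day. None was called for a genotype difference that changed with day, a comparison in which 0% of all genes were called by edgeR, 1644 had an unadjusted p under 0.05, limma voom called 0 and DESeq2 called 88. DESeq2 and limma voom also called 0 of the 10 between genotypes on either day. At an unadjusted p under 0.05, the counts were 1 of the 10 between genotypes on P0, 5 on P3 and 3 in genotype by day, where 5.96%, 6.67% and 7.60% of all genes had such a p.

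**Figure D1:**
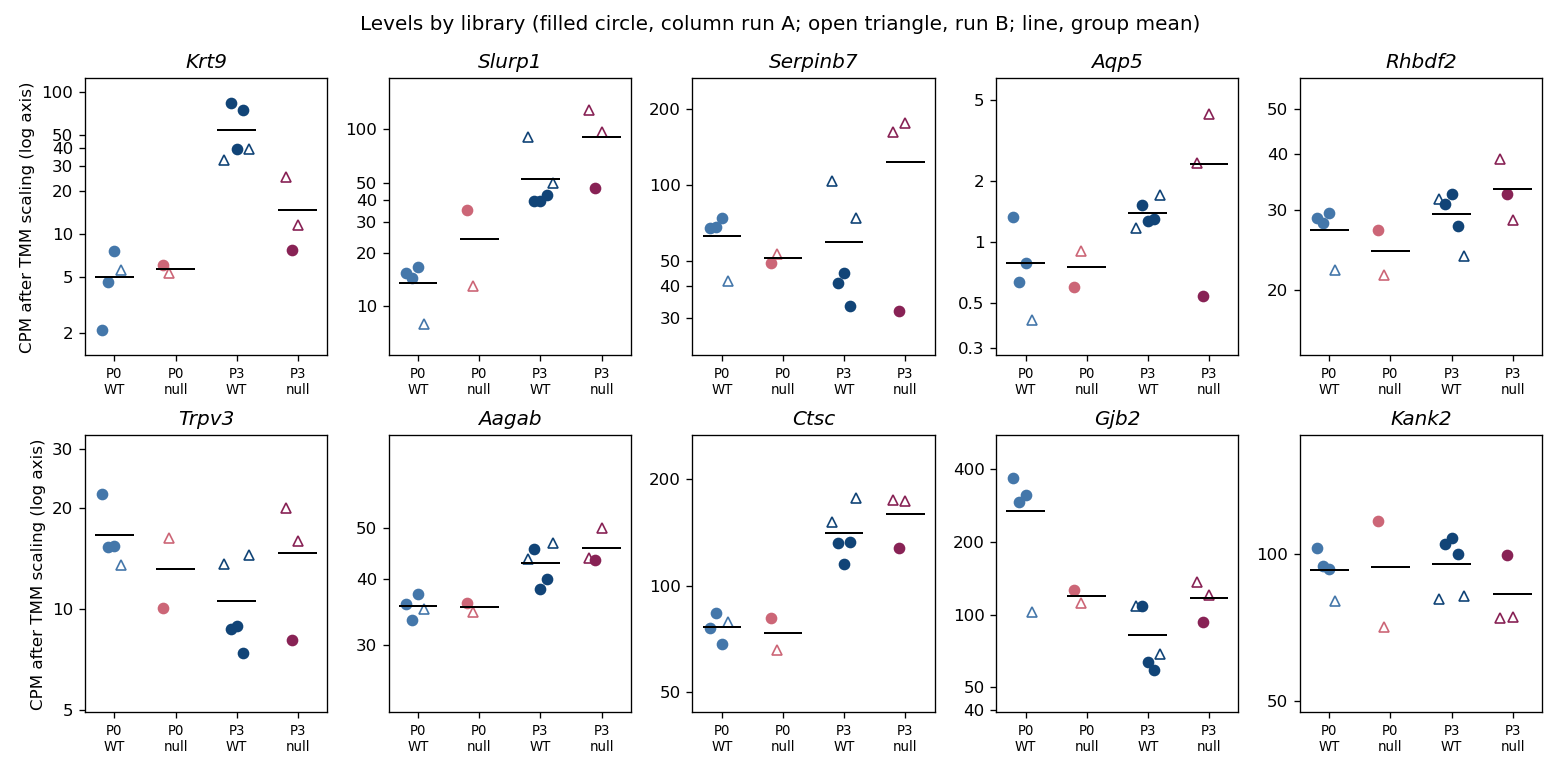
Level of each gene in the 14 libraries, as CPM after TMM scaling on a log axis whose range differs between panels, by day and genotype. Filled circles are libraries of the first run of columns (A), open triangles those of the second (B), and lines are group means. The 5 P3 WT points of Krt9 lie between 32.9 and 83.0 CPM, above all other points of that gene, and 3 of the 4 P0 WT points of Gjb2 lie far above the fourth.

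Per kilobase, Gjb2 was the most abundant of the 10 in P0 WT at 112 ± 48.2 CPM per kilobase (SD, n = 4). Serpinb7 followed at 32.2 ± 7.34 and Kank2 at 17.7 ± 1.77. Ctsc stood at 13.2 ± 1.11, then Aagab at 6.24 ± 0.292, Rhbdf2 at 5.14 ± 0.637, and Slurp1 at 4.65 ± 1.33, the last 2 within their spread of each other. Trpv3 (2.84 ± 0.642), Krt9 (1.93 ± 0.889) and Aqp5 (0.305 ± 0.15) were the least abundant. By P3 WT Krt9 had moved up, Slurp1 had passed Aagab and Rhbdf2, and Ctsc had passed Kank2. Krt9 at 20.9 ± 8.87 CPM per kilobase (SD, n = 5) lay within the spread of Serpinb7 (30.4 ± 15), Ctsc (24.4 ± 4.03), Kank2 (18.2 ± 2.45) and Slurp1 (17.8 ± 7.32). In P3 Krt9 null it stood at 5.74 ± 3.55 (n = 3), beside Rhbdf2 at 6.31 ± 0.992 and below Serpinb7 at 63.0 ± 40.6. Aqp5 was the lowest of the 10 in each of the 4 groups.

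Krt9, the gene altered in the null pups, was counted in every library. In P0 WT its levels were 2.09, 4.59, 7.61 and 5.59 CPM (mean 4.97 ± 2.29, SD, n = 4), and in P0 Krt9 null they were 6.08 and 5.32 CPM (5.70 ± 0.543, n = 2). In P3 WT they were 32.9, 83.0, 39.8, 74.0 and 39.8 CPM (53.9 ± 22.9, n = 5), and in P3 Krt9 null 25.2, 7.74 and 11.5 CPM (14.8 ± 9.16, n = 3). On P0 the null libraries lay inside the wild-type range, and on P3 every null library lay below every wild-type library. Since counts over the whole gene do not show which part of it was altered, the Krt9 values do not check the genotype labels. Krt19, a type I keratin of the same gene cluster, was at 0.865 to 1.95 CPM in the 9 wild-type libraries and at 48.9 to 209 CPM in the 5 null libraries, so the 2 labelled genotypes did not overlap in it on either day. Between the days Krt9 rose 10.7-fold in WT (log2 3.42, SE 0.48, edgeR's adjusted p = 0.00154), and all 5 P3 libraries lay above all P0 libraries. In the null paws the fitted change was 2.59-fold (log2 1.37, SE 0.61, edgeR's adjusted p = 0.3), though the days did not overlap there either. Within runs the difference between days was 3.73 and 2.59 in WT and 0.32 and 1.59 in the null paws, on the log2(CPM + 0.5) scale.

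Between genotypes on P3 the Krt9 level of the null paws was 3.62-fold lower (log2 -1.86, SE 0.49), with an unadjusted p of 0.00285 and an adjusted p of 0.694 in edgeR, so it did not pass over all genes. Only 2.56% of all genes had P3 groups without overlap, and Krt9 was the 1 gene of the 10 among them. The difference on P0 was 0.19 (log2, SE 0.56, edgeR's adjusted p = 0.968), and 11.3% of all genes, but 0 of the 10, had P0 groups without overlap. The change of the genotype difference with day was -2.05 (log2, SE 0.72, edgeR's adjusted p = 0.583). Within the first run of columns the P3 null library was 2.94 lower than the mean of its 3 wild-type libraries on the log2(CPM + 0.5) scale (difference -2.94), and within the second run the difference was -1.06 (2 against 2 libraries).

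Set against the summed CPM of 9 suprabasal keratinocyte markers (Krt1, Krt10 and the cornified-envelope gene Lor among them, none at 0 in any library), Krt9 also separated the P3 genotypes. The sum was 15990 to 27920 CPM in P3 WT and 19730 to 49620 in P3 Krt9 null. Krt9 per 1000 CPM of these markers was 1.18 to 4.88 in P3 WT and 0.255 to 0.507 in P3 Krt9 null, without overlap. On P0 it was 0.0516 to 0.315 in WT and 0.274 to 0.409 in the null paws. On this scale the P3 null paws overlapped the P0 groups, and the P3 wild-type paws lay above the other 3 groups. Trpv3 also separated the P3 genotypes on it, at 0.424 to 0.606 in WT and 0.355 to 0.409 in the null paws. Its fitted P3 genotype difference was 0.49 (log2). The share of all genes without overlap on this scale was not computed.

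**Figure D2:**
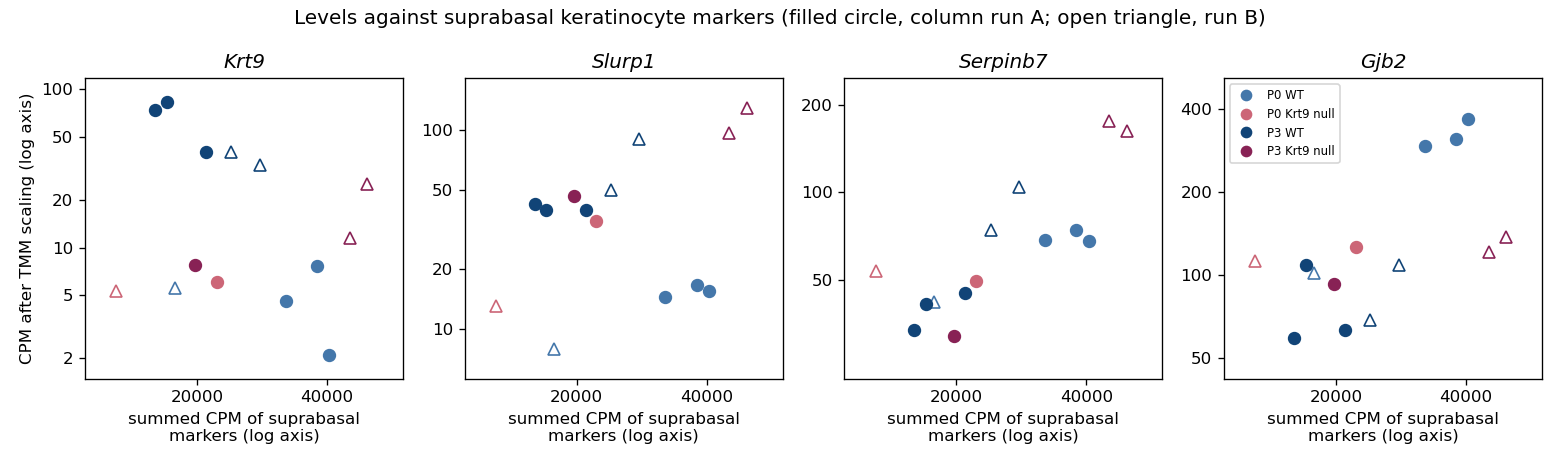
CPM of Krt9, Slurp1, Serpinb7 and Gjb2 against the summed CPM of 9 suprabasal keratinocyte markers, both on log axes, 1 point per library. Colours give the group, and filled circles and open triangles the first (A) and second (B) run of columns. On P3 Serpinb7 and Slurp1 climb along the marker sum, and the P3 Krt9 null points of Krt9, 7.74 to 25.2 CPM, lie below all P3 WT points.

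The start regions of 8 of the 10 genes were found in RefSeq's table for GRCm38.p6, a build other than the authors' GRCm39, and those of 3 genes called between the days in WT are shown, to let their letters be compared: Krt9 (chr11:100193197-100193496, minus strand), Ctsc (chr7:88277835-88278134, plus strand) and Gjb2 (chr14:57104653-57104952, minus strand). Each runs from 250 bases before the start to 50 after it. Capitals mark matches on either strand to 4 short motifs, and no matches overlapped. The first was the site of the Jun and Fos factors known as AP-1, searched as TGANTCA. The second was the element bound by the basal transcription machinery, searched as TATAAA and called the TATA box. The third was the site of Sp1-like factors, searched as GGGCGG and called the GC box. The fourth was the CCAAT box, searched by those letters.
Krt9: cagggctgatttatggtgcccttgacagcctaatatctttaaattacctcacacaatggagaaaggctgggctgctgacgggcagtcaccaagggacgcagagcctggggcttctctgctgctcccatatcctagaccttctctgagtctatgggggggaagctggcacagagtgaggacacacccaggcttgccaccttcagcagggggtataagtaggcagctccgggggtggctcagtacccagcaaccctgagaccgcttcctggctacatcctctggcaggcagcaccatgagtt
Ctsc: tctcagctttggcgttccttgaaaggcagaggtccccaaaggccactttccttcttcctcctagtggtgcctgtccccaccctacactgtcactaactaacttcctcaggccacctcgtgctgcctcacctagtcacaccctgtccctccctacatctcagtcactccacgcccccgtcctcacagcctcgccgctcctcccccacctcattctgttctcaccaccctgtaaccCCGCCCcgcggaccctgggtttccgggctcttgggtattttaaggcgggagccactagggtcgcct
Gjb2: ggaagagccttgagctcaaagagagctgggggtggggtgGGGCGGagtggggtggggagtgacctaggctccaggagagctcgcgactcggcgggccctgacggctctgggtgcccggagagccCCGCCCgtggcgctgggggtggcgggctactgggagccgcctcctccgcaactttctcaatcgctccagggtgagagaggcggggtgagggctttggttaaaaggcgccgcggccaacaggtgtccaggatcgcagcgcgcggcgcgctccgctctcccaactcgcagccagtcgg
The Krt9 window held none of the 4 motifs as spelled, and was 57.0% GC. Ctsc held 1 GC box, 16 bases before the start, and Gjb2 held 2, at 211 and 126 bases before it. A GC box occurs in 35.7% of all 32851 promoter windows of this length, so the matches describe these letters and nothing more.

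Slurp1 encodes a secreted protein of the Ly6 family that acts on nicotinic acetylcholine receptors of keratinocytes, and its loss causes mal de Meleda. Its levels in P0 WT were 15.5, 14.5, 16.6 and 7.94 CPM (13.6 ± 3.89, SD, n = 4), and in P0 Krt9 null 34.9 and 13.1 CPM (24.0 ± 15.4, n = 2). In P3 WT they were 90, 39.5, 39.6, 42.6 and 49.8 CPM (52.3 ± 21.5, n = 5), and in P3 Krt9 null 129, 46.7 and 96.1 CPM (90.5 ± 41.3, n = 3). The days did not overlap within either genotype, and the genotypes overlapped on both days. From P0 to P3 the gene rose 3.74-fold in WT (log2 1.91, SE 0.33, edgeR's adjusted p = 0.00319). In the null paws the fitted 4.22-fold change missed the threshold (log2 2.08, SE 0.45, edgeR's adjusted p = 0.0606). It passed with litter as a block (log2 1.99, limma voom's adjusted p = 0.0472) and in DESeq2 (adjusted p = 3.18e-05). No litter number held 2 null pups, so the block tied none of the null libraries to each other. Null minus WT was 0.73 on P0 (log2, SE 0.39) with edgeR's adjusted p = 0.836, and 0.90 on P3 (SE 0.33) with edgeR's adjusted p = 0.705.

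Within the 2 runs the wild-type change between days in Slurp1 was 1.36 (3 against 3 libraries) and 3.00 (2 against 1), both upward. These values are on the log2(CPM + 0.5) scale. The 1 P0 WT library of the second run was replicate 4, the lowest of its group at 7.94 CPM. The null change was 0.42 (1 against 1) and 3.04 (2 against 1). Null minus WT was 1.14 and 0.69 on P0 and 0.20 and 0.73 on P3. Per 1000 CPM of suprabasal markers Slurp1 went from 0.383 to 0.451 in P0 WT to 1.89 to 3.22 in P3 WT, and from 1.01 to 1.57 in P0 Krt9 null to 2.13 to 2.59 in P3 Krt9 null. On this scale the days did not overlap within either genotype. The genotypes overlapped on P3 and not on P0, where both null libraries lay above all 4 wild-type libraries. Kank2 also separated the P0 genotypes on this scale, at 2.46 to 4.52 in WT and 5.27 to 5.46 in the null paws. Its fitted P0 genotype difference was 0.007 (log2). The share of all genes without overlap on this scale was not computed, so the separation is not read as a trait of Slurp1. In the reference annotation 322 exon bases of Slurp1 lie opposite the gene Them6, and without the strand setting of the counting the reads there cannot be assigned. Them6 itself stood at 0.983 to 3.61 CPM over the 4 groups, far below Slurp1. The highest P3 WT library of Slurp1, replicate 1, stood apart from the other 4. Of 12 relatives and nicotinic receptor genes, 1 was called higher and 1 lower between days in WT. Over all genes 8.49% were called higher and 8.07% lower. Lynx1, a membrane-bound relative, rose 1.62-fold (log2 0.70, SE 0.13, edgeR's adjusted p = 0.0034), and Lypd3 fell by 1.61 on the log2 scale (SE 0.30, edgeR's adjusted p = 0.0048). The relative Slurp2 was at 8.13 ± 3.73 CPM in P0 WT and 15.3 ± 5.35 CPM in P3 WT.

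Ctsc encodes cathepsin C, a lysosomal dipeptidyl peptidase that activates serine proteases of neutrophils and mast cells, and its loss causes Papillon-Lefèvre syndrome. Its levels in P0 WT were 75.9, 83.8, 68.3 and 78.9 CPM (76.7 ± 6.47, SD, n = 4), and in P0 Krt9 null 81.2 and 65.9 CPM (73.6 ± 10.8, n = 2). In P3 WT they were 151, 132, 115, 133 and 177 CPM (141 ± 23.4, n = 5), and in P3 Krt9 null 175, 128 and 173 CPM (159 ± 26.5, n = 3). All 8 P3 libraries lay above all 6 P0 libraries, and the genotypes overlapped on both days. The gene rose 1.85-fold in WT (log2 0.89, SE 0.14, edgeR's adjusted p = 0.00161), and in the null paws it rose 2.15-fold (log2 1.10, SE 0.20, edgeR's adjusted p = 0.0257). The genotype difference was -0.06 on P0 and 0.16 on P3 as log2 (SE 0.18 and 0.15, edgeR's adjusted p = 0.97 and 0.945). The difference between the 2 rises was 0.22 (log2, SE 0.24, edgeR's adjusted p = 0.896).

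Within runs the wild-type change of Ctsc was 0.73 and 1.05, and the null change 0.66 and 1.4, on the log2(CPM + 0.5) scale. The call in the null paws was lost without P0 Krt9 null replicate 2 (edgeR's adjusted p = 0.506), without P3 Krt9 null replicate 1 (0.124) or without P3 Krt9 null replicate 3 (0.0615). Macrophage markers were also higher on P3: their summed CPM was 371.5 to 589.8 over the P0 libraries and 712.5 to 908.2 over the P3 libraries. Of these markers, 7 of 9 were called higher on P3 in WT and 2 of 9 in the null paws. Over all genes 8.49% were called higher in WT and 0.338% in the null paws. None of the macrophage markers was at 0 in any library. Neutrophil markers summed to 41.27 to 164.5 CPM on P0 and 112.0 to 429.5 CPM on P3, with 4 of 10 called higher in WT and 0 of 10 in the null paws, and Elane and Mpo at 0 in some libraries. Within a day, Pearson's r of Ctsc with the macrophage sum was 0.129 on P0 and 0.0877 on P3. With the neutrophil sum it was 0.944 on P0 and -0.441 on P3. The part of macrophages and neutrophils in the rise of Ctsc was not tested. Of 8 tested proteases that cathepsin C can activate, Tpsab1, a mast cell tryptase, was the only 1 called, and it fell: by 2.24 in WT (log2, SE 0.29, edgeR's adjusted p = 0.000679) and by 2.36 in the null paws (SE 0.38, edgeR's adjusted p = 0.0208). Of 11 other cathepsins 1 was called in WT, Ctse, which rose from 0.860 ± 0.444 to 11.6 ± 9.40 CPM (log2 3.55, SE 0.83, edgeR's adjusted p = 0.016).

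Gjb2 encodes connexin 26, a gap-junction protein whose dominant changes cause keratoderma with deafness. Its levels in P0 WT were 369, 293, 312 and 102 CPM (269 ± 116, SD, n = 4), and in P0 Krt9 null 126 and 112 CPM (119 ± 10.3, n = 2). In P3 WT they were 109, 109, 63.4, 58.9 and 68.9 CPM (81.9 ± 25.1, n = 5), and in P3 Krt9 null 137, 93.1 and 121 CPM (117 ± 22.0, n = 3). Of the P0 WT libraries, 3 stood between 293 and 369 CPM, and replicate 4, the library of the second run whose sex markers were both low, stood in the range of the other groups. So the wild-type days overlapped, as did the genotypes on each day. From P0 to P3 Gjb2 fell by 1.75 on the log2 scale in WT, 3.36-fold (SE 0.26, edgeR's adjusted p = 0.00151). In the null paws the change was 0.04 (log2, SE 0.35, edgeR's adjusted p = 0.97).

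The fall of Gjb2 in WT was much larger in 1 run than in the other: -2.12 in the first run (3 against 3 libraries) and -0.23 in the second (2 against 1), on the log2(CPM + 0.5) scale. Without P0 WT replicate 4 the fitted change was -1.98 (edgeR's adjusted p = 5.97e-05). Null minus WT was -1.12 on the log2 scale on P0 (SE 0.35), with edgeR's adjusted p = 0.831. On P3 it was 0.67 (SE 0.28), with edgeR's adjusted p = 0.732. Within runs the P0 difference was -1.35 and 0.13. The change of the genotype difference with day was 1.79 (log2, SE 0.45, edgeR's unadjusted p = 0.0015 and adjusted p = 0.437). It passed without P0 WT replicate 4 (log2 2.01, edgeR's adjusted p = 0.0214) and in DESeq2 (1.79, adjusted p = 0.0153). The 9 suprabasal markers had values of similar size in this term, with a median of 1.85 (0.776 to 2.2), and edgeR called 0 of them. Their part in the Gjb2 value was not tested.

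Suprabasal marker RNA moved with Gjb2 on P0: its sum was 40480, 32080, 37950 and 17740 CPM in P0 WT replicates 1 to 4, and 22210 and 13000 CPM in P0 Krt9 null. Gjb2 per 1000 CPM of those markers was 5.76 to 9.14 in P0 WT and 5.69 to 8.60 in P0 Krt9 null, so the genotypes overlapped on that scale. The part of these markers in the P0 values was not tested. On P3 it was 2.87 to 6.39 in WT and 2.68 to 4.72 in the null paws. Among 8 other skin connexins, Gjb6, whose protein pairs with connexin 26, fell by 1.57 in WT (log2, SE 0.37, edgeR's adjusted p = 0.0156) and Gjc1 by 0.60 (SE 0.11, edgeR's adjusted p = 0.00369). Over the 8, the fitted median between days was 0.02 in WT and 0.37 in the null paws (log2), with 5 of 8 above 0 in each. The most abundant connexin, Gja1 (connexin 43), stood at 435 ± 33.6 CPM in P0 WT and 561 ± 128 CPM in P3 WT and was not called.

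**Figure D3:**
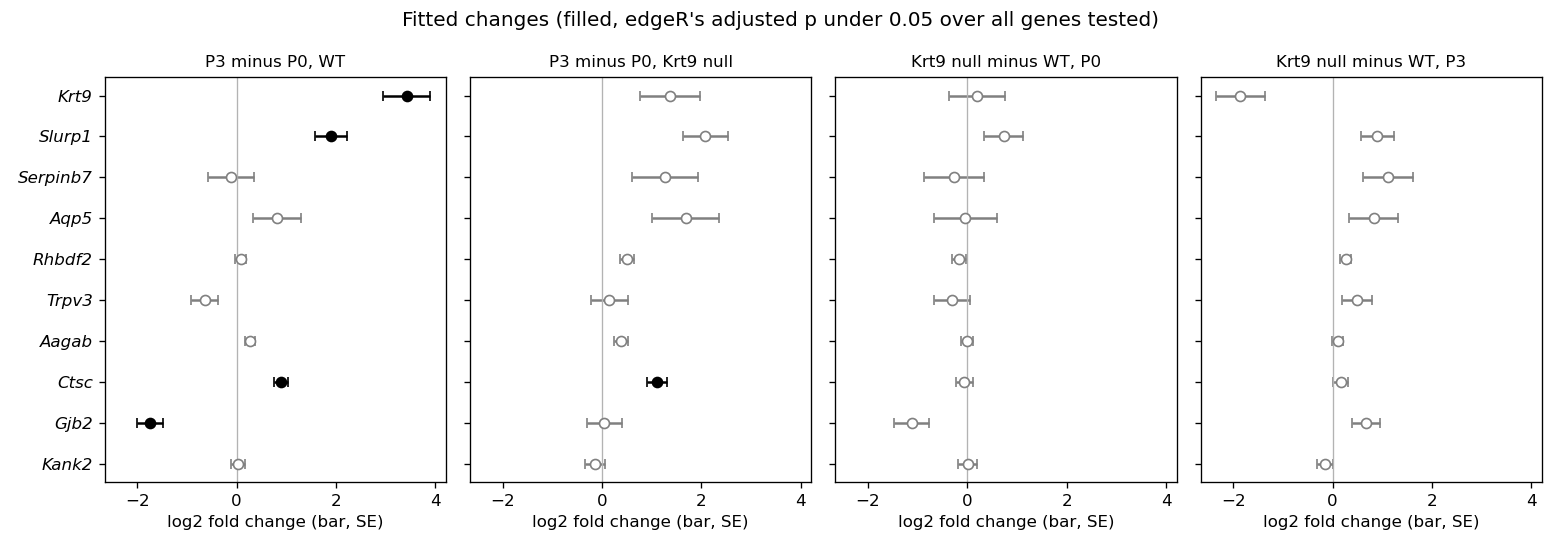
Fitted log2 fold change of each gene with its standard error (bar) for the 2 comparisons of days and the 2 of genotypes. Filled points passed edgeR's adjusted p threshold of 0.05 over all genes. Krt9 at 3.42, Slurp1, Ctsc and Gjb2 at -1.75 are filled in WT, Ctsc alone in Krt9 null, and none between genotypes.

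Serpinb7, an epidermal serine protease inhibitor whose loss causes Nagashima-type keratoderma, and Trpv3, a heat-sensitive calcium channel of keratinocytes whose activating changes cause Olmsted syndrome, followed each other across the P3 libraries. Serpinb7 was at 67.8, 68.2, 74.2 and 42.0 CPM in P0 WT (63.1 ± 14.4, SD, n = 4) and at 49.5 and 53.7 CPM in P0 Krt9 null (51.6 ± 3.01, n = 2). In P3 WT it was at 104, 41.1, 44.8, 33.4 and 74.2 CPM (59.5 ± 29.4, n = 5), and in P3 Krt9 null at 162, 31.9 and 176 CPM (123 ± 79.4, n = 3). The null P3 libraries included both the highest values of all 14 and the lowest. Trpv3 was at 22.0, 15.3, 15.4 and 13.5 CPM in P0 WT (16.6 ± 3.75, SD, n = 4) and at 10.1 and 16.3 CPM in P0 Krt9 null (13.2 ± 4.33, n = 2). In P3 WT it was at 13.6, 8.69, 8.88, 7.37 and 14.5 CPM (10.6 ± 3.22, n = 5), and in P3 Krt9 null at 20.1, 8.07 and 16 CPM (14.7 ± 6.11, n = 3). In both genes, the 4 P3 libraries of the second run stood above the 4 of the first, whatever the genotype.

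No comparison of days or genotypes called either gene. For Serpinb7 the genotype difference on P3 was 1.11 (log2, SE 0.50, edgeR's adjusted p = 0.745), and within runs it was -0.30 and 0.94 on the log2(CPM + 0.5) scale, opposite in direction. The change between days was -0.11 in WT and 1.27 in the null paws (log2, SE 0.46 and 0.66, edgeR's adjusted p = 0.91 and 0.385). For Trpv3 the day difference in WT was -0.65 (log2, SE 0.28, edgeR's adjusted p = 0.127), and with run as a term it was -0.84 and passed (edgeR's adjusted p = 0.00503). Within runs it was -1.02 and 0.06. Trpv3 itself differed between runs, by 0.67 (log2, edgeR's adjusted p = 0.00932). The 4 tested relatives Trpv1, Trpv2, Trpv4 and Trpv6 gave no call in any comparison. Trpv4 was the most abundant of them, at 33.4 ± 4.22 CPM in P0 WT. Of 10 other epidermal serpins 1 was called in WT, Serpinb6c, which fell by 1.94 (log2, SE 0.48, edgeR's adjusted p = 0.0189).

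Serpinb7 and Trpv3 had the only 2 of the 8 start regions with a match to the AP-1 motif, and are shown for that reason, with the same marks as above: Serpinb7 (chr1:107422439-107422738, plus strand) and Trpv3 (chr11:73267270-73267569, plus strand), both in GRCm38.p6.
Serpinb7: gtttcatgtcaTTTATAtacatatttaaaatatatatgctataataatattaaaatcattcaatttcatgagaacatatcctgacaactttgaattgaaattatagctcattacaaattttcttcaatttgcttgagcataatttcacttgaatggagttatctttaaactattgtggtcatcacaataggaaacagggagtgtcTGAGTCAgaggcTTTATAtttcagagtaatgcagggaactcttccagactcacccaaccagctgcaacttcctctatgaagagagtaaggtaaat
Trpv3: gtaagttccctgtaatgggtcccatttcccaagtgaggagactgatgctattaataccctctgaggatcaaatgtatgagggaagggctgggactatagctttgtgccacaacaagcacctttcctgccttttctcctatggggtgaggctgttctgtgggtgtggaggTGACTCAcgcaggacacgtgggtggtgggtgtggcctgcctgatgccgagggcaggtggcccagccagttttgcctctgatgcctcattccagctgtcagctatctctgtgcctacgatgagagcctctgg
The AP-1 match lay 45 bases before the start of Serpinb7, which also held 2 TATA boxes on the opposite strand at 239 and 33 bases, and 81 bases before the start of Trpv3. Of all 32851 promoter windows, 7.81% hold an AP-1 match and 13.6% a TATA box. The Serpinb7 window was 31.7% GC and that of Trpv3 54.7%.

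Aqp5, a water channel of glands and of the outer epidermis, had the fewest counts of the 10, 16 to 122 per library. It was at 1.33, 0.64, 0.79 and 0.41 CPM in P0 WT (0.793 ± 0.391, SD, n = 4) and at 0.60 and 0.91 CPM in P0 Krt9 null (0.755 ± 0.215, n = 2). In P3 WT it was at 1.18, 1.52, 1.27, 1.30 and 1.70 CPM (1.39 ± 0.211, n = 5), and in P3 Krt9 null at 2.45, 0.54 and 4.28 CPM (2.43 ± 1.87, n = 3). The P3 null libraries lay on both sides of the wild-type range, low in the first run and high in the second. Null minus WT on P3 was -0.83 and 0.97 within the runs, on the log2(CPM + 0.5) scale, and P3 minus P0 was 0.42 and 1.07 in WT and -0.08 and 1.42 in the null paws. No comparison called Aqp5. The nearest was the day difference in the null paws (log2 1.68, SE 0.67, edgeR's adjusted p = 0.233), which passed without P3 Krt9 null replicate 2 (log2 2.15, edgeR's adjusted p = 0.0381). Among 6 tested aquaporins, Aqp3, the glycerol and water channel of basal keratinocytes, fell by 1.05 in WT (log2, SE 0.25, edgeR's adjusted p = 0.0127). Aqp9 rose 3.52-fold in the null paws (log2 1.81, SE 0.37, edgeR's adjusted p = 0.0398), from 3.06 ± 1.19 to 10 ± 2.29 CPM.

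Rhbdf2 encodes iRhom2, a pseudoprotease that carries the sheddase ADAM17 to the cell surface, and its dominant changes cause tylosis with oesophageal cancer. It was at 28.8, 28.2, 29.6 and 22.2 CPM in P0 WT (27.2 ± 3.37, SD, n = 4), 27.2 and 21.6 CPM in P0 Krt9 null (24.4 ± 3.97, n = 2), 31.7, 31.0, 32.6, 27.7 and 23.8 CPM in P3 WT (29.4 ± 3.61, n = 5) and 39.0, 32.6 and 28.6 CPM in P3 Krt9 null (33.4 ± 5.25, n = 3). All 14 values lay between 21.6 and 39.0 CPM. Only the null days did not overlap. That change was 1.42-fold (log2 0.50, SE 0.14, edgeR's adjusted p = 0.116), and it passed with run as a term (log2 0.52, edgeR's adjusted p = 0.0259) and in DESeq2 (log2 0.51, adjusted p = 0.0276). Within runs it was 0.26 and 0.62 on the log2(CPM + 0.5) scale, and null minus WT on P3 was 0.10 and 0.28. The genotype difference was -0.16 on P0 and 0.26 on P3 (log2, SE 0.14 and 0.12, edgeR's adjusted p = 0.875 and 0.745).

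Of the 12 genes of the iRhom2 and ADAM17 pathway 1 was called higher and 4 lower between days in WT, and 0 in the null paws. Over all genes 8.49% were called higher and 8.07% lower in WT, and 0.768% were called in the null paws. Adam17 rose 1.44-fold in WT (log2 0.52, SE 0.11, edgeR's adjusted p = 0.00737), from 59.6 ± 2.02 to 86.0 ± 9.16 CPM, while iRhom2's paralogue Rhbdf1 fell by 0.38 (SE 0.10, edgeR's adjusted p = 0.0239). The receptor Egfr fell by 0.39 (SE 0.10, edgeR's adjusted p = 0.0202). The ligand Tgfa, shed by ADAM17, fell by 0.98 (SE 0.24, edgeR's adjusted p = 0.0139). The fourth gene called lower was the ligand Areg. The median of the 12 was -0.24 (log2), beside -0.01 over all genes.

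Aagab encodes a chaperone that assembles the clathrin adaptors AP-1 and AP-2, and its loss causes punctate keratoderma. All 14 values lay between 33.4 and 50.1 CPM. They were 35.9, 33.4, 37.4 and 35.1 CPM in P0 WT (35.5 ± 1.66, SD, n = 4) and 36.0 and 34.6 CPM in P0 Krt9 null (35.3 ± 0.933, n = 2). On P3 they were 43.6, 45.6, 38.3, 40 and 46.9 CPM in WT (42.9 ± 3.67, n = 5) and 43.9, 43.5 and 50.1 CPM in the null paws (45.8 ± 3.67, n = 3). All 8 P3 values lay above all 6 P0 values. The fitted changes of 1.21-fold in WT (log2 0.27, SE 0.10, edgeR's adjusted p = 0.0753) and of 1.30-fold in the null paws (log2 0.38, SE 0.14, edgeR's adjusted p = 0.198) missed the threshold. Within runs the changes were 0.21 and 0.36 in WT and 0.27 and 0.43 in the null paws, on the log2(CPM + 0.5) scale. In WT it passed with run as a term (log2 0.26, edgeR's adjusted p = 0.0384) and in genes with at least 1 CPM in 2 libraries (log2 0.28, edgeR's adjusted p = 0.0472). Of the 14 adaptor subunits and partners 1 was called in WT, Ap1s2, which rose 1.41-fold (log2 0.50, SE 0.15, edgeR's adjusted p = 0.0333).

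Kank2 encodes a scaffold that joins talin at adhesions to the cell cortex and also binds steroid receptor coactivators, and its recessive loss gives keratoderma with woolly hair. It was at 103, 94.6, 93.4 and 80.2 CPM in P0 WT (92.7 ± 9.25, SD, n = 4), and at 117 and 71.0 CPM in P0 Krt9 null (94.0 ± 32.5, n = 2). In P3 WT it was at 81.0, 105, 108, 100 and 82.2 CPM (95.3 ± 12.8, n = 5), and in P3 Krt9 null at 74.0, 99.9 and 74.2 CPM (82.7 ± 14.9, n = 3). All 4 groups overlapped, and the high values were those of the first run. Run differed by -0.40 (log2, second minus first, edgeR's adjusted p = 0.000573), and no comparison of day or genotype was called, with fitted values from -0.16 to 0.03 and edgeR's adjusted p from 0.805 to 0.998. Within runs null minus WT was 0.27 and -0.17 on P0 and -0.06 and -0.14 on P3, on the log2(CPM + 0.5) scale. Of 11 related genes 1 was called in WT, Kank4, which rose 1.66-fold (log2 0.73, SE 0.17, edgeR's adjusted p = 0.011).

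**Figure D4:**
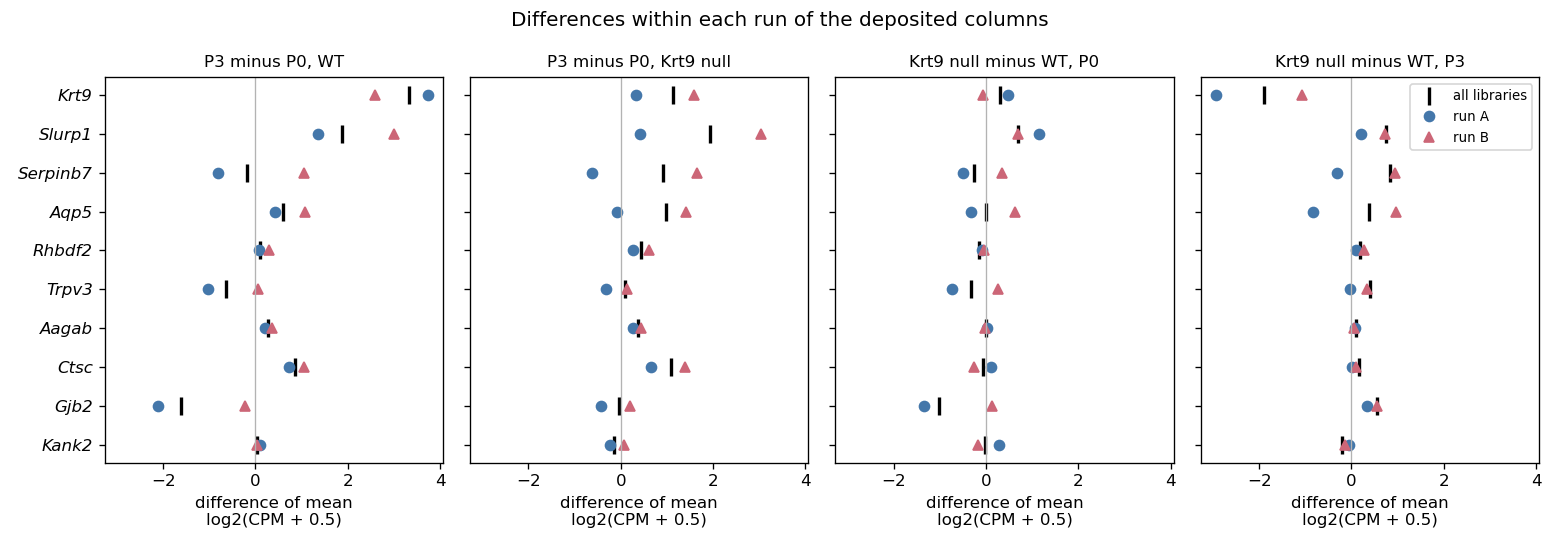
Difference of mean log2(CPM + 0.5) between the groups of each comparison over all libraries (black ticks), within the first run of columns (circles, A) and within the second (triangles, B), with no test. Krt9 on P3 is lower in the null paws in both runs, at -2.94 and -1.06, while the P0 to P3 difference of Gjb2 in WT is -2.12 in the first and -0.23 in the second.

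Between genotypes on P3, 8 of the 10 fitted values were above 0 and 2 below (Krt9 and Kank2), with a median of 0.38 (log2) beside -0.01 over all genes. On P0, 3 were above 0 and 7 below, with a median of -0.05, inside the quartiles of all genes (-0.249 to 0.219). Suprabasal marker RNA had medians of the same sign but larger size: the 9 markers had -0.62 on P0, all 9 below 0, and 1.01 on P3, all 9 above 0. On either day 0 of 9 were called by edgeR. Their part in the values of the 10 genes was not tested. On P3 the runs divided the null libraries, with sums of 49620 and 45130 CPM in the second run and 19730 CPM in the first, where the wild-type libraries stood at 15990 to 20960 CPM. Within the first run, the P3 null library differed from wild type by 0.20 in Slurp1, -0.30 in Serpinb7, -0.04 in Trpv3, 0.33 in Gjb2 and 0.02 in Ctsc on the log2(CPM + 0.5) scale, and by -2.94 in Krt9. Within the second run, where the 2 wild-type libraries had marker sums of 27920 and 24000 CPM, the differences were 0.73 in Slurp1, 0.94 in Serpinb7, 0.34 in Trpv3, 0.56 in Gjb2, 0.09 in Ctsc and -1.06 in Krt9.

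Between the days, 7 of 10 fitted values were above 0 in WT (median 0.18, log2) and 9 of 10 in the null paws (median 0.80). The median over all genes was -0.01 in each. The 9 suprabasal markers had medians of -0.20 in WT, with 3 of 9 above 0, and 1.42 in the null paws, with 9 of 9 above 0. What part they had in the day values of the 10 genes was not tested. Libraries of the 2 days did not overlap for 4 of the 10 genes in WT (Krt9, Slurp1, Aagab and Ctsc), where 16.7% of all genes did not, and for 5 of the 10 in the null paws (those 4 and Rhbdf2), where 25.6% of all genes did not. Whether the 10 changed differently with age in the 2 genotypes was tested by the genotype by day term. It called 0 of 10 with edgeR, 0 with limma voom and 1, Gjb2, with DESeq2. The median of the 10 in that term was 0.32 (log2), beside 1.85 for the 9 suprabasal markers and -0.02 over all genes.

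**Figure D5:**
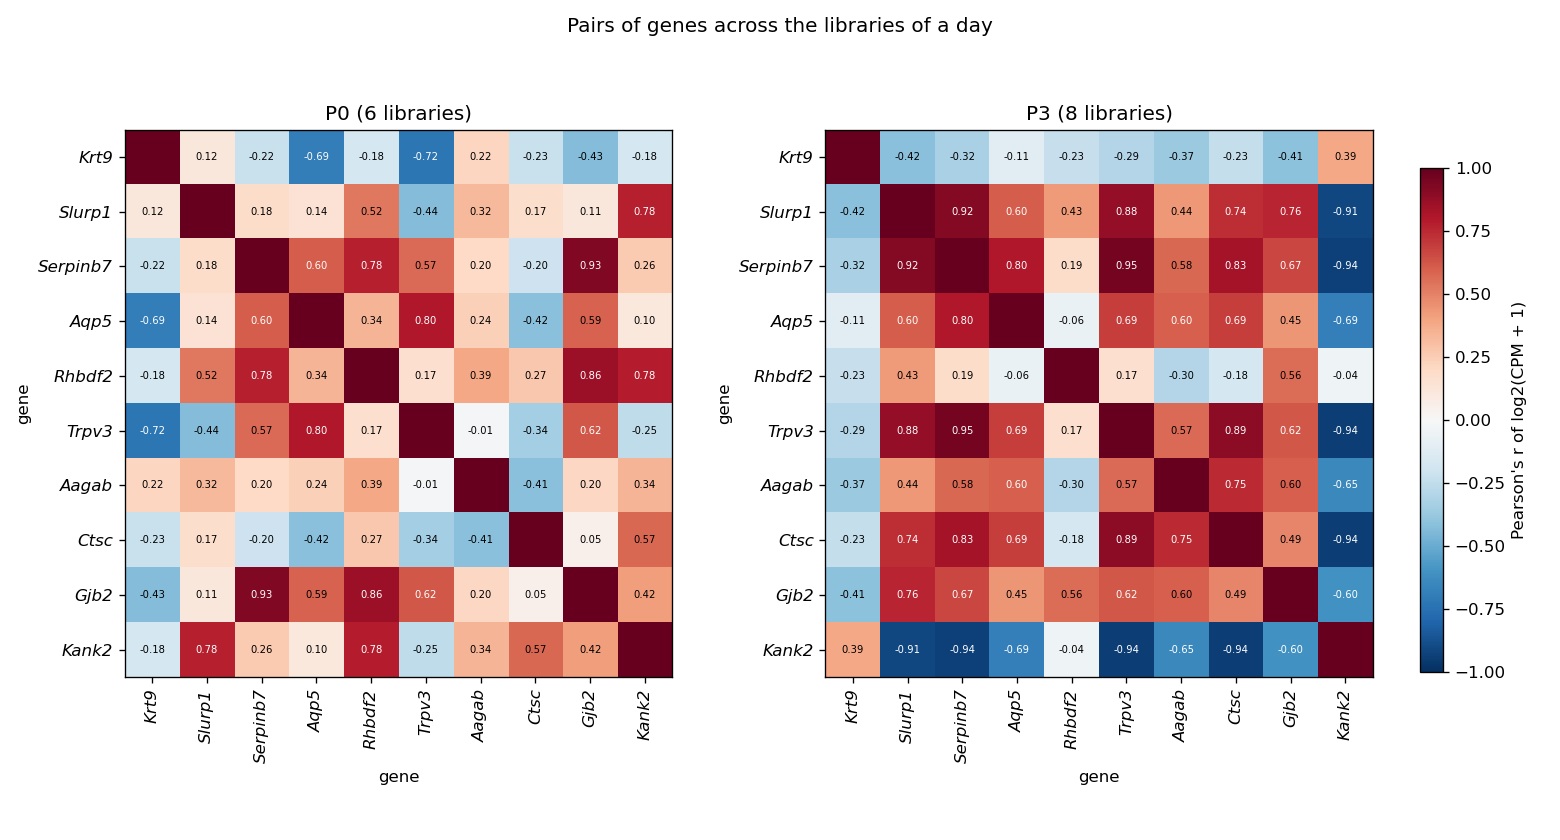
Pearson's r of log2(CPM + 1) between each pair of the 10 genes over the 6 libraries of P0 (left) and the 8 of P3 (right), both genotypes together, as description with no test. On P3 Slurp1, Serpinb7, Trpv3 and Ctsc form a red block and Kank2 runs against them (Kank2 with Serpinb7, -0.94), while Krt9 has r between -0.42 and 0.39 with the others.

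Across libraries of a day the 10 genes were compared in 45 pairs, as a description of libraries that share genotype, run and tissue makeup. On P3 5 pairs had a Pearson's r above 0.8 and 4 below -0.8. The closest was Serpinb7 with Trpv3 (r = 0.954, Spearman's rho = 0.929, n = 8), and it stood at 0.942 without the 2 libraries farthest from the median. On P0 this pair had r = 0.569 (n = 6). With group means removed over all 14 libraries it was 0.854, the 1 pair of 45 still above 0.8. Kank2 ran opposite to Trpv3 (r = -0.941, rho = -0.762, n = 8), and at -0.895 without the 2 farthest. On P0 3 pairs were above 0.8, among them Serpinb7 with Gjb2 at 0.928 (n = 6), and Kank2 had no r below -0.8. Serpinb7, Slurp1 and Trpv3 followed the suprabasal marker sum on P3 (r = 0.954, 0.934 and 0.924, n = 8), and stood at 0.895, 0.806 and 0.839 without the 2 farthest libraries of each. Krt9 ran the other way (r = -0.502, rho = -0.595, n = 8), and its r was -0.898 without P3 Krt9 null replicates 2 and 3, so the value rests on which libraries are counted. On P0 (n = 6) the r with that sum was 0.791 for Serpinb7, 0.226 for Slurp1, 0.406 for Trpv3 and -0.342 for Krt9. Rhbdf2 and Gjb2 had 0.94 and 0.938 there, and 0.36 and 0.699 on P3. Kank2 on P3 followed smooth muscle and pericyte markers (r = 0.979) and fibroblast markers (r = 0.934), 8 genes each, none at 0 in any library. Its r with these 2 sums on P0 was 0.568 and 0.616. With the suprabasal sum Kank2 had r = -0.893 on P3 and 0.631 on P0. All these sums are parts of the same total, and what ties them to the genes was not tested.

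The genes most like Krt9 were sought among 14089 tested genes with a mean of at least 1 CPM, by Pearson's r over the 14 libraries. The 8 nearest were Brca1 (r = 0.903, Spearman's rho = 0.912), Arf4 (0.890, 0.908), Cenpm (0.875, 0.877), Rrm1 (0.872, 0.908), Cidec (0.866, 0.864), Rrm2 (0.865, 0.877), Spc24 (0.863, 0.934) and Mcm6 (0.861, 0.938). Within the 8 P3 libraries their r fell to between 0.476 (Rrm1) and 0.826 (Arf4). None of the other 9 genes was among the 8. By contrast Serpinb7 had near copies of its pattern in Sgpp1 (r = 0.991), the cornified-envelope gene Hrnr (0.986) and Dlg2 (0.984), with r of 0.990 or more among P3 libraries for all 3. For Slurp1 the nearest were Eif2b5 (0.979), Wfdc21 (0.974) and Suds3 (0.956), for Gjb2 Tuba1c (0.974), D5Ertd579e (0.965) and Ripk4 (0.960), for Ctsc Gstk1 (0.963), Copz1 (0.956) and Adam17 (0.955), and for Kank2 Glis2 (0.975), Bace1 (0.962) and Fgd1 (0.960). Trpv3 was nearest to Cabyr (0.965), Rhbdf2 to Gtpbp1 (0.962), Aagab to Ak4 (0.948) and Aqp5 to Ncbp1 (0.896).

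Another 42 genes linked to keratoderma were set beside the 10, of which 41 were tested. Between days in WT 1 was called higher, Atp2c1, and 11 lower, with a median of -0.35 (log2) and 30 of 41 below 0. Over all genes 8.49% were called higher and 8.07% lower. In the null paws the fitted median was 0.46, with 31 of 41 above 0. The 4 called lower in WT with the smallest adjusted p were Lor, an envelope protein, which fell by 1.05 (SE 0.17, edgeR's adjusted p = 0.00172), the wound keratins Krt6a, which fell by 3.40 (SE 0.52, edgeR's adjusted p = 0.00262), and Krt16, which fell by 4.17 (SE 0.72, edgeR's adjusted p = 0.00488), and the lipoxygenase Aloxe3, which fell by 0.99 (SE 0.18, edgeR's adjusted p = 0.00348). Krt16, a type I keratin of stressed sole skin, was at 267 to 1490 CPM in P0 WT and 18.1 to 78.3 CPM in P3 WT, opposite in direction to Krt9 over the same libraries. Between genotypes 0 of 41 were called by edgeR on either day. The fitted median was -0.44 on P0, with 31 of 41 below 0, and 0.61 on P3, with 37 of 41 above 0. The suprabasal markers had medians of the same signs. Krt1, Krt10, Lor and Dsg1a are in this list and also among those markers, so the match in sign is partly built in. Krt1 and Krt10, the most abundant keratins of the list, were at 7840 ± 1740 and 6620 ± 1750 CPM in P3 WT and at 14100 ± 6350 and 11500 ± 5560 CPM in P3 Krt9 null, with edgeR's adjusted p = 0.694 and 0.705.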

How the data were processed

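Total RNA of 14 mouse paws was depleted of ribosomal RNA and sequenced by a contractor, per the labels' protocols. The authors deposited raw read counts per gene, which were checked to be whole numbers. For the authors' own pipeline the submitters' processing notes list the build GRCm39, the aligner STAR (2.7.10a), the counter featureCounts, and edgeR with limma, without the strand setting or any filter. Of 56691 IDs, 52073 matched a symbol in the GRCm38 reference annotation, and the fit also used the unmatched IDs, which held 0.623% of counts. Genes kept by filterByExpr were fitted in 1 model over the 14 libraries with edgeR 4.0.16 (quasi-likelihood, robust, TMM, 4 groups and labelled sex, R 4.3.3), and 5 contrasts were tested. With few libraries a group, precision is limited. Counts were simulated over 21619 genes, with changes placed only in genes with a mean above 1 CPM. No run or litter differences were simulated, so recovery in the real libraries can be lower. For the P3 genotype comparison 51% of 2-fold and 89% of 4-fold changes were recovered, and 65% and 94% for the wild-type days.

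The 10 genes and all lists were chosen with earlier results of these data known, and no count over them is independent support. The gene IDs are those of the deposited table. The other genes named are those of each list with the smallest adjusted p among the calls (at most 4), else the most abundant, plus the nearest by correlation. Alternatives were DESeq2 1.42.0, limma voom 3.58.1, DESeq2 size factors, no filter, no sex term, a litter block, column run as a term, each library left out, and a filter of 1 CPM in 2 libraries chosen after seeing the data. Of the labels' replicate information, litter is the only number that could tie pups together, and whether a number names the same litter on both days is not given, so it was used within a day (limma voom, consensus correlation 0.555). Replicate numbers are in deposit order and pair no samples. One result of the gene lists is not reported here.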

Additional observations from a re-analysis of the deposited data

Results flagged for a closer look

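In P3 WT the highest Slurp1 library, replicate 1 at 90 CPM, was far from the other 4, with a gap to the nearest of them that was 0.796 of the group's range, above the critical 0.71 for 5 libraries. It was the 1 group to stand out of 20 gene and group combinations examined, and chance marks about 1 in 20. The rise of Slurp1 between days in WT was called in each of the 14 fits that left out 1 library (log2 1.72 to 2.11).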

How the results depend on the processing

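The 4 calls between days in WT (Krt9, Slurp1, Ctsc, Gjb2) were made in each of the 14 fits without 1 library and in each of 7 other settings, no filter aside. Their adjusted p ran from 5.97e-05 to 0.0158 over the leave-outs. Of 1100 values of the 10 genes under alternatives, 1034 kept direction and call, 27 gained and 3 lost a call, and 36 reversed, none of them among the 110 of called genes.

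Without a filter on low counts 36822 genes were fitted, and the fit gave the median gene the spread of 1 common trend. There edgeR called 182 genes between genotypes on P0, 631 on P3, 1692 between days in the null paws and 617 for genotype by day. Of the 10 it called 2, 4, 5 and 3. DESeq2 called 37, 36, 1026 and 88 genes, with 3 of the 10 between null days and 1 for genotype by day. With litter as a replicate block, genes called were 2 on P0 and 3 for genotype by day, and 2 of the 10 (Ctsc and Slurp1) between null days. With column run as a term they were 7 between genotypes on P3, 5570 between days in WT, 1070 between null days and 7 for genotype by day, and 2 of the 10 between null days. Without the sex term 41 genes were called between null days, and with at least 1 CPM in 2 libraries, chosen after seeing the data, 2 of the 10. The signs that turned were of small values: Aagab on P0 without a filter (0.000483), Kank2 on P0 in limma voom (-0.018), Gjb2 between null days without sex (-0.028), and Slurp1 for genotype by day without sex (-0.025) and with the litter block (-0.054). The cause was not tested.

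Leaving out 1 library gave 1 to 3 genes called on P0, 1 to 200 on P3, 1629 to 4332 between days in WT, 0 to 645 between null days and 0 to 47 for genotype by day, and 0 to 3 and 0 to 1 of the 10 in the last 2. The extremes came without P0 WT replicate 4 (3 on P0, 2 on P3, 47), P3 Krt9 null replicate 2 (200, 4332, 645, and 13 for genotype by day), and P0 Krt9 null replicate 2 (0 between null days). In WT, P0 replicates 1, 2 and 3 gave 1764, 1984 and 1629. Between null days, P3 Krt9 null replicates 1 and 3 gave 2 and 67, and P0 WT replicate 1 and P3 WT replicates 2 and 4 gave 81, 78 and 83. Values that changed sign ranged on P0 from -0.091 to 0.45 for Krt9, -0.49 to 0.34 for Aqp5, -0.83 to 0.12 for Trpv3, -0.039 to 0.027 for Aagab, -0.27 to 0.14 for Ctsc and -0.36 to 0.31 for Kank2. Between days in WT they ranged from -0.37 to 0.038 for Serpinb7 and -0.029 to 0.090 for Kank2, and in the null paws from -0.26 to 0.69 for Trpv3, -0.14 to 0.27 for Gjb2 and -0.47 to 0.21 for Kank2. For genotype by day they ranged from -0.25 to 0.66 for Slurp1, -0.03 to 1.34 for Aqp5 and -0.51 to 0.17 for Kank2.

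With 2 P0 and 3 P3 null libraries, the simulated recovery of 2-fold changes between genotypes was 48% on P0 and 51% on P3. No run or litter differences were simulated. Such recovery limits what a missed threshold shows.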
